A study of Bos taurus with 21 samples.

Results

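The cytosolic ribosomal protein genes were followed through the RNA-seq data of milk somatic cells from 21 Holstein cows. The set was chosen with earlier results of these data known, and its members were taken by name. They were every symbol of RPL or RPS followed by a digit, with RPSA and FAU added and the RPS6K kinases left out. This gave 82 of the 13570 genes in the count files, of which 47 were RPL genes, 34 were RPS genes or RPSA, and 1 was FAU. Milk somatic cells are the cells shed into milk, a mixture of leukocytes and mammary epithelial cells, and each cow gave 1 library of total RNA. The labels assign 9 cows to the high milk yielding group (HY) and 12 to the low yielding group (LY), with no treatment in either. The breeding value of milk yield, given without a unit, was 181.118 to 468.053 in HY and -404.27 to 86.92 in LY. Parity was 2 to 4, and the lactation period was 41 to 268 days in HY and 52 to 270 days in LY. The cows were adult milking animals of different lactation stage at a single sampling each, so a difference with lactation period is a difference between cows and not a change followed within a cow.

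The cytosolic ribosome reads mRNA into protein. Its large subunit is built on RPL proteins and its small subunit on RPS proteins, which are needed in fixed proportion, and their mRNAs begin with a 5′ terminal oligopyrimidine tract through which TOR signalling sets their translation. A lactating mammary epithelial cell devotes much of its translation to caseins and whey proteins; milk neutrophils and macrophages are immune cells that have entered the gland from the blood. Several of these proteins also have roles outside the ribosome or occur as paralogs whose use differs between tissues.

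Levels are given as CPM, which are counts brought to a common library size, scaled with the TMM factors of edgeR, or on a log2 scale where stated, and they are not corrected for gene length. The libraries held 7878557 to 28541904 counts on genes. In HY cows 3262 and 3280, sampled at 65 and 108 days, 60.4% and 56.4% of the counts fell on 7 milk protein genes, against 0.118% to 39.5% in the other 19 cows. Their TMM factors of 0.448 and 0.478 lay apart from the other factors, which ran from 0.726 to 1.51. A low factor raises the CPM of every gene in a library, so the tests were repeated without these 2 cows and, in place of TMM, with scaling to the total count on genes. Genes marking each cell type were present. As mean log2 CPM over the list, the lowest and highest cow were at 5.71 and 9.14 for 8 neutrophil genes, 6.27 and 8.74 for 10 macrophage genes, 1.80 and 6.66 for 10 T cell genes, -0.24 and 4.89 for 5 B cell genes, and 1.05 and 6.67 for 10 mammary epithelial genes. In such bulk samples fewer cells of a type and less RNA per cell cannot be told apart.

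Of the 82 genes, 81 had a count in at least 1 cow and 79 passed the filter on low counts. RPL10L, a testis-enriched copy of RPL10, had 0 counts in each of the 21 cows, which allows up to 3 counts in a library. RPL3L, the striated muscle copy of RPL3, had 0 to 28 counts and was at 0 in 11 cows. RPS25 had 0 to 44 counts and was at 0 in 2 cows, although it encodes a core protein of the small subunit. RPS19BP1 meets the naming rule but encodes a protein that binds RPS19 and is not part of the ribosome. The rule leaves out the stalk proteins RPLP0, RPLP1 and RPLP2, which also belong to the ribosome. The symbols RPL22 and RPL39L are not in the count files, so they were not analysed here.

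The levels of the 79 genes differed widely, and without a correction for length they rank counts and not mRNA abundance. The median over cows was under 10 CPM for 5 genes, 10 to 100 CPM for 14, 100 to 1000 CPM for 50 and over 1000 CPM for 10. The highest was RPSA, a small subunit protein also known as a laminin receptor, with 837 CPM in the lowest cow, a median of 2164 and 7893 in the highest. RPS3, which also takes part in DNA repair, had a median of 1737 CPM. At the other end, RPS15A had a median of 2.62 CPM, RPS13 had 4.64 CPM and RPL12 had 4.70 CPM, although each encodes a core protein that every ribosome holds. Reads that aligned at more than 1 place were set aside by the counting and made up 21.6% to 27.5% of the reads in the files. Mammalian genomes carry many processed copies of ribosomal protein genes, so the level of a single gene is uncertain, and the part of these reads in the low genes was not tested.

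RPS9, a protein of the small subunit, is of interest because it served as a reference gene in the qRT-PCR of the study. Its lowest level was 374 CPM, in LY cow 3135, the median was 645 CPM and the highest was 2523 CPM, in LY cow 7643, a 6.74-fold range. Scaled to the total count, it ran from 428 to 2469 on the CPM scale. The SD of its log2 CPM over the 21 cows was 0.69, near the median SD of 0.71 over the 9372 genes that passed the filter. In HY it ran from 477 to 1843 CPM with a median of 795, and in LY from 374 to 2523 CPM with a median of 621. The groups overlapped over most of their range, and RPS9 differed by 0.18 ± 0.33 on the log2 scale (HY minus LY, SE) with an edgeR P-value of 0.586. This difference turned to -0.11 with total count scaling and to -0.18 without HY cows 3262 and 3280.

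Together the 82 genes held between 2.78% of the counts, in HY cow 3014 at 268 days, and 7.83%, in LY cow 7643 at 224 days, with a median of 4.66%. In the 8 cows under 120 days of lactation the share was 4.03% at its lowest, 5.50% in the median and 6.57% at its highest. In the 13 cows over 120 days these values were 2.78%, 3.92% and 7.83%. The later cows thus lay lower in the median but spanned the whole range of the earlier ones. The 9 HY cows had a share of 4.82% ± 1.31 (SD), and the 12 LY cows had 4.86% ± 1.33. When the 7 milk protein genes were left out of the total, the share in HY cows 3280 and 3262 became 15.1% and 12.9%, against 3.28% to 8.68% in the other cows.

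**Figure D1:**
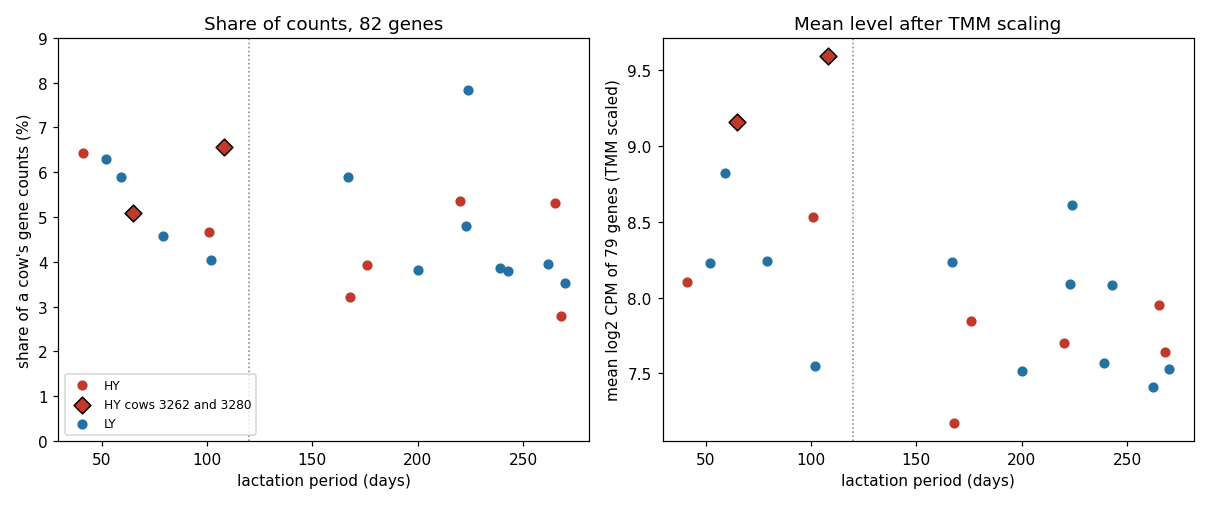
Share of a cow's gene counts on the 82 ribosomal protein genes (left, %) and mean log2 CPM of the 79 genes that passed the filter (right, TMM scaled) against lactation period in days, 1 point per cow, with the dotted line at 120 days. The shares overlap between early and late cows, whereas after TMM scaling the milk protein rich HY cows 3262 and 3280 (diamonds) have the highest mean levels, 9.16 and 9.59.

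The genes rose and fell together across the cows. The median Pearson r over the 3081 pairs of the 79 genes was 0.74, with a range from -0.30 to 0.99 over 21 cows. The first principal component of their log2 CPM carried 72.8% of the variance. The genes share libraries and TMM factors, so r is a description. The median r was 0.60 and the first component carried 57.5% without HY cows 3262 and 3280, and with total count scaling these values were 0.45 and 42.5%. Of the 79 genes, 63 had an r over 0.7 with the mean of the others. The median gene was 6.33-fold higher in its highest than in its lowest cow, and 68 genes had a range over 4-fold. The highest cow was HY 3280 for 46 genes, HY 3262 for 18 and LY 7643 for 12, while HY cow 2920 was the lowest for 36 genes. The median SD of log2 CPM was 0.72 over these genes and 0.71 over all 9372 genes. The SD was largest in RPS27L (1.32), a p53-inducible paralog of RPS27, RPS4X (1.31) and RPL7 (1.12). It was smallest in RPL7L1 (0.37), which takes part in ribosome assembly, RPL26L1 (0.37) and RPS27 (0.39). RPL26, which sits near the exit of the peptide tunnel, moved least with the others, with an r of 0.087.

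**Figure D2:**
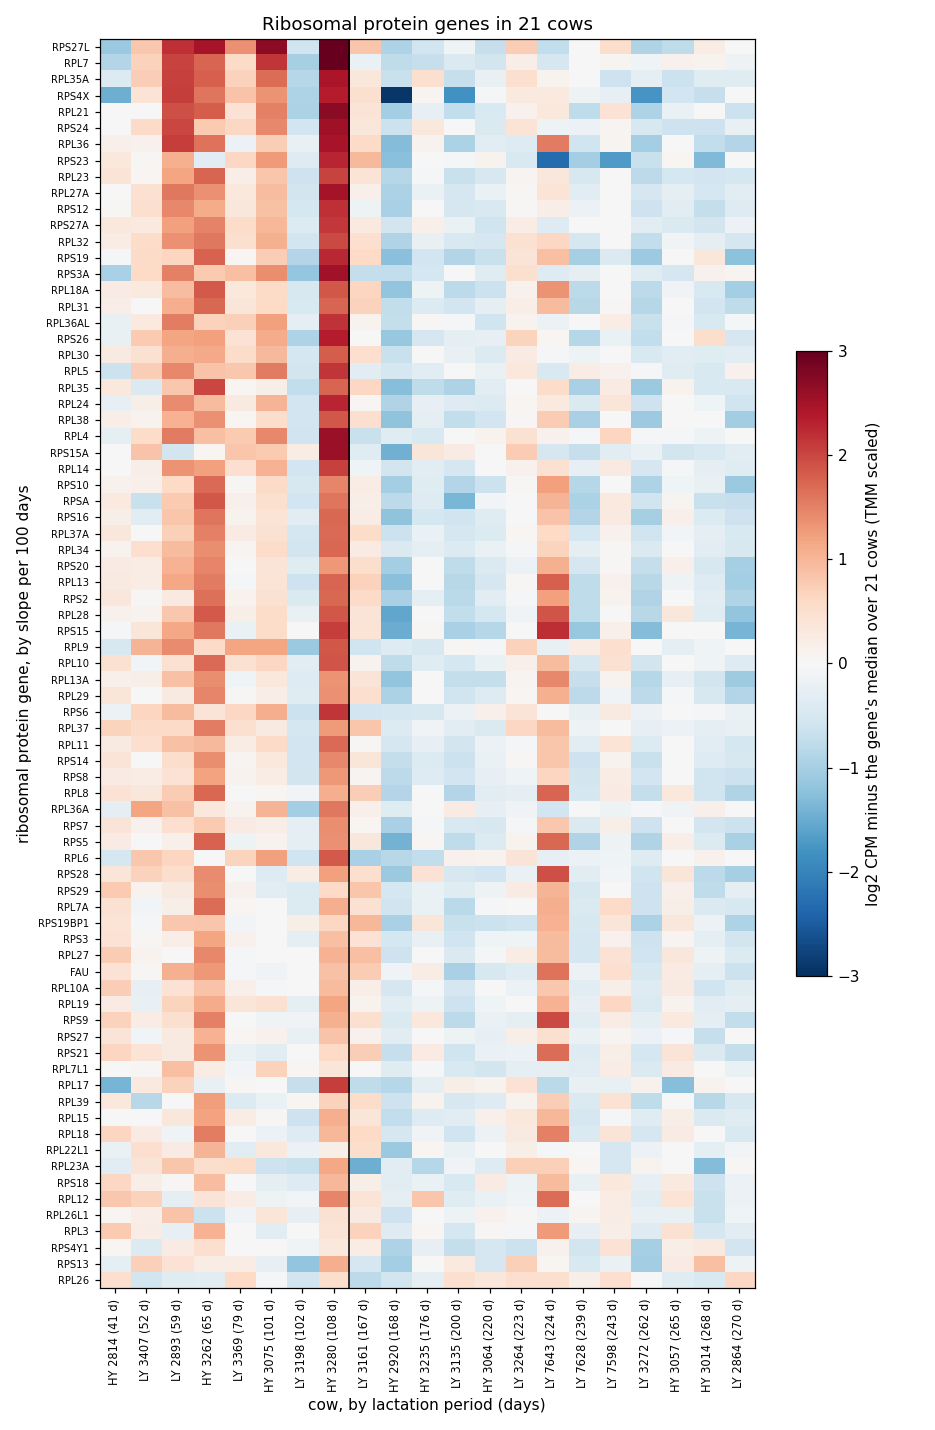
Log2 CPM (TMM scaled) of 77 of the 79 ribosomal protein genes minus each gene's median over cows, with red above and blue below that median. Cows run from 41 to 270 days of lactation, the black line divides cows under and over 120 days, and genes are ordered by their slope with lactation period. The columns of HY 3280 and HY 3262 are red over most genes, HY 2920 is blue, and RPL26 in the last row varies little with the others.

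The relation with lactation period was tested with the quasi-likelihood test of edgeR, as a log2 change per 100 days over the 21 cows. At an FDR adjusted P-value under 0.05, 0 of the 79 genes were called, and so were 0% of all 9372 genes. The lowest adjusted P-value of any gene was 0.0614, and the ribosomal protein genes RPL35A and RPS27A were among the genes that had it. At an unadjusted P-value under 0.05, 52 of the 79 genes fell with lactation period and 0 rose, while 15.4% of all genes fell at this threshold. The slope was negative in 78 of 79 genes, against 50.9% of all genes, and its median was -0.47 per 100 days against -0.01 over all genes. RPL26 was the exception, at 0.10 ± 0.13 (SE). At an adjusted P-value under 0.1, the FDR the study used and a threshold added here after the values were seen, 25 genes fell, and 6.95% of all genes did so. DESeq2 called 20 genes, all falling and all among the 52, at an adjusted P-value under 0.05, where 4.81% of all genes fell. With the cows split at 120 days into 2 classes, edgeR called 34, all falling, where 6.48% of all genes fell. Leaving out HY cow 2814 gave 15 called genes, where 2.8% of all genes fell, and leaving out LY cow 3407 gave 11, where 2.85% did. The stages overlapped throughout, since 0 of the 79 genes, and 0% of all 9372, had every cow over 120 days below every cow under 120 days.

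RPL35A, a large subunit protein mutated in Diamond-Blackfan anaemia, had a lowest, median and highest level of 107, 472 and 1051 CPM in the 8 cows under 120 days. In the 13 later cows these levels were 120, 159 and 271 CPM. Its slope was -0.91 ± 0.21 (SE) on the log2 scale per 100 days, with an edgeR adjusted P-value of 0.0614. RPS27A, which is made as a fusion with ubiquitin, had 636, 1455 and 3663 CPM early and 560, 738 and 1023 CPM late, with a slope of -0.68 ± 0.17. In both genes the early cows were far more spread than the late cows, and the lowest early cow lay within the late range or, for RPL35A, below it. RPS27L had the steepest slope, -1.17 ± 0.31, from 5.99, 46.4 and 139 CPM early to 6.82, 11.9 and 23.1 CPM late.

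Among the genes named for their roles, the slopes ran from steep to flat. RPL5 and RPL11, which carry the 5S rRNA into the large subunit and bind MDM2 when assembly fails, had slopes of -0.59 ± 0.19 and -0.43 ± 0.15. RPS19, the gene most often mutated in Diamond-Blackfan anaemia, was at -0.64 ± 0.24. The large subunit genes RPL4 and RPL10 were at -0.57 ± 0.21 and -0.47 ± 0.18. RPSA was at -0.52 ± 0.21, and RPS6, the substrate of S6 kinase, at -0.43 ± 0.18. These 7 genes had an unadjusted P-value under 0.05 and none passed after adjustment. RPS3 at -0.30 ± 0.15, FAU at -0.29 ± 0.18, RPS9 at -0.26 ± 0.20 and RPL3 at -0.16 ± 0.15 did not reach that threshold. By subunit, 29 of 45 RPL genes and 23 of 34 RPS, RPSA and FAU genes fell at an unadjusted P-value under 0.05.

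**Figure D3:**
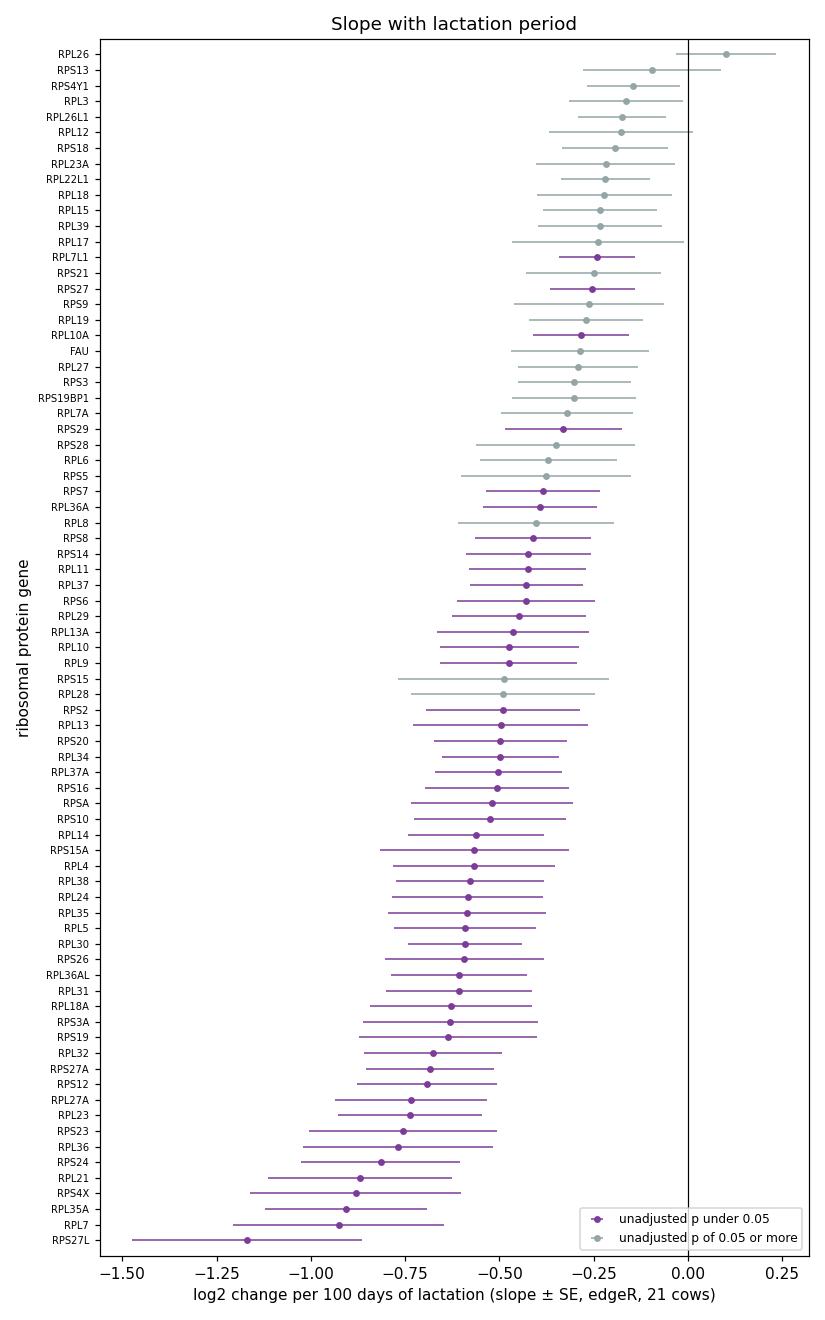
Slope with lactation period for 77 of the 79 ribosomal protein genes, as log2 change per 100 days from edgeR over 21 cows (points) with its SE (bars), and in purple where the unadjusted P-value is under 0.05. All plotted points but RPL26 lie left of 0, from RPS27L at -1.17 to RPL26 at 0.10.

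The count of falling genes depended on the cows of high milk protein content and on the scaling. Without HY cows 3262 and 3280, 25 of 79 genes fell at an unadjusted P-value under 0.05, where 7.73% of all genes fell, and the median slope was -0.24. These 25 genes were all among the 52. With total count scaling, 15 of 79 fell, where 2.98% of all genes fell, the median slope was -0.17 against 0.16 over all genes, and 67 of 79 slopes were negative. RPL35A had a slope of -0.68 ± 0.19 without the 2 cows and -0.53 ± 0.16 with total count scaling. Milk protein genes and epithelial genes also had mostly negative slopes with lactation period. The milk protein share of counts was 0.201%, 34.0% and 60.4% in the lowest, median and highest cow under 120 days and 0.118%, 5.58% and 34.3% over 120 days, and 7 of 7 milk protein genes had negative slopes, with a median of -1.01, of which 3 had an unadjusted P-value under 0.05. Of 10 mammary epithelial genes 9 had negative slopes, with a median of -0.56, and 2 had an unadjusted P-value under 0.05. Over all genes 15.4% fell at that threshold, and 50.9% had negative slopes. Without HY cows 3262 and 3280, 6 of 7 milk protein and 7 of 10 epithelial genes had negative slopes. Their medians were -0.42 and -0.18. With total count scaling 7 of 7 and 7 of 10 had negative slopes, with medians of -0.58 and -0.22. Under both settings 0 genes of these lists had an unadjusted P-value under 0.05. Of 8 neutrophil genes 4 rose at that threshold, where 9.23% of all genes rose, with a median slope of 0.48, and 10 of 10 T cell genes had positive slopes with a median of 0.60, of which 0 had an unadjusted P-value under 0.05. The macrophage and B cell genes did not rise as lists in the same fit. Of 10 macrophage genes 8 had negative slopes, with a median of -0.08. Of 5 B cell genes 4 had negative slopes, with a median of -0.30. In both lists 0 genes had an unadjusted P-value under 0.05. After adjustment 0 genes of any of these marker lists were called. With the T cell and neutrophil levels as terms, 11 of 79 ribosomal protein genes fell at that threshold, where 7.94% of all genes did. With the mammary epithelial and macrophage levels as terms, 36 fell, where 10.1% of all genes did.

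Other genes of the translation machinery were taken as lists. Of 73 mitochondrial ribosomal protein genes tested, 39 fell with lactation period at an unadjusted P-value under 0.05 and 0 rose, where 15.4% of all genes fell, with a median slope of -0.37. Of them 25 fell without HY cows 3262 and 3280, and 11 with total count scaling. These genes build the ribosome of the mitochondrion, and the lowest P-values were those of MRPL27 (-0.79 ± 0.19), MRPL14 (-1.02 ± 0.25) and MRPL55 (-0.78 ± 0.19). Of 14 genes for elongation factors and other mRNAs with a 5′ terminal oligopyrimidine tract, 7 fell, and 3 and 1 did so under these 2 settings. The 7 included EEF1D, part of the exchange factor of elongation factor 1, at -0.88 ± 0.25, HINT1 at -0.48 ± 0.15, and TPT1, which encodes a growth-related tumour protein, at -0.56 ± 0.20. The stalk genes RPLP0, RPLP1 and RPLP2 were at -0.25 ± 0.18, -0.34 ± 0.19 and -0.32 ± 0.24, with unadjusted edgeR P-values of 0.0826 or higher. Of 29 ribosome biogenesis genes, 4 fell, a share near that of all genes, with a median slope of -0.04. Of 9 genes for TOR signalling AKT1S1 fell, at -0.70 ± 0.21, and RPS6KB1 rose, at 0.46 ± 0.16. These calls are at an unadjusted edgeR P-value under 0.05, and 0 genes of these lists passed after adjustment. Whether the lists differ from the cytosolic ribosomal protein genes was not tested.

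The cell type genes were then used as the covariate: the slope of each gene was fitted with edgeR against the mean log2 CPM of a marker list, over 21 cows. With the mammary epithelial level, 42 of 79 ribosomal protein genes rose at an FDR adjusted P-value under 0.05 and 0 fell, where 15.4% of all genes rose. With the milk protein level, 25 rose and 0 fell, where 14.3% of all genes rose. With the macrophage level, 0 rose and 22 fell, where 9.97% of all genes fell. With the T cell level, 0 rose and 20 fell, where 6.41% of all genes fell. With the neutrophil level, 0 rose and 8 fell, where 3.89% of all genes fell. With the B cell level, 0 of 79 were called, where 0.149% of all genes fell, although 36 fell at an unadjusted P-value under 0.05, where 12.4% of all genes fell. The lowest P-values with the B cell level were those of RPL7 (-0.65 ± 0.16), RPL36AL (-0.40 ± 0.10) and RPL24 (-0.42 ± 0.11), with edgeR adjusted P-values of 0.0526 or higher. The marker levels come from the same libraries and the same scaling as the genes tested, and the levels depend on each other, so the 6 fits are not independent.

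These calls also rested on the scaling and on the same 2 cows. Without HY cows 3262 and 3280, 13 genes rose with the epithelial level, where 8.34% of all genes rose, and those 13 were all among the 42. In those 19 cows 12 rose and 5 fell with the milk protein level, where 11.4% of all genes rose and 13.2% fell. With the macrophage level 10 fell, where 7.82% of all genes fell, and 0 were called with the T cell, neutrophil or B cell level. With total count scaling, 3 genes rose and 3 fell with the epithelial level, where 5.07% of all genes rose and 25.6% fell, and the median slope changed from 0.26 to -0.02 while that of all genes moved to -0.26. Under that scaling 6 genes rose and 15 fell with the milk protein level, where 5.4% of all genes rose and 26.8% fell. With the macrophage level 13 rose and 7 fell, where 52% of all genes rose and 4.6% fell. The direction for the whole set was therefore not the same under both scalings.

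**Figure D4:**
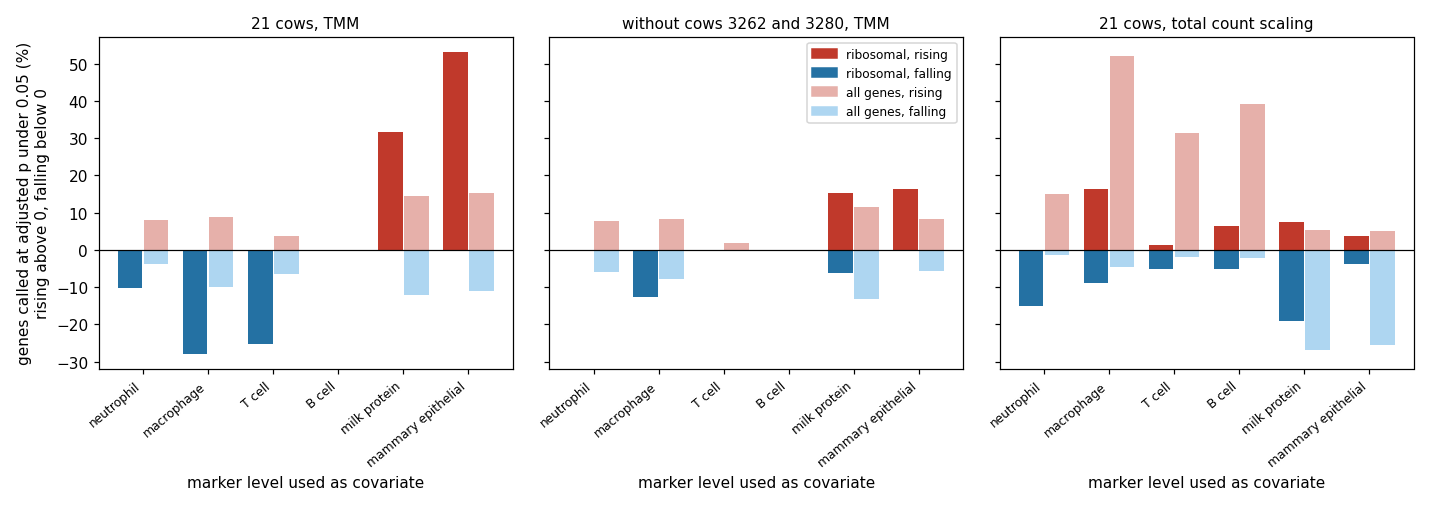
Percent of the 79 ribosomal protein genes (dark bars) and of all tested genes (pale bars) called at an adjusted P-value under 0.05 in edgeR against each of 6 marker levels, with rising genes above 0 and falling genes below 0. In the left panel (21 cows, TMM) 42 ribosomal protein genes rose with the epithelial level; 13 did without HY cows 3262 and 3280 (middle) and 3 with total count scaling (right).

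With the epithelial level 35 of 79 genes had a positive slope under all 3 settings, and 3 of them, RPS27L, RPL7 and RPS3A, were called under all 3. The share of all genes that did so under all 3 settings is not given here for either count. Whether ribosomal protein genes kept the sign or the call more often than other genes was therefore not tested. RPS27L had the steepest slope with the epithelial level, 0.80 ± 0.10 (SE) per log2 unit, with an edgeR adjusted P-value of 6.82e-07. The slope was 0.70 ± 0.11 without the 2 cows and 0.67 ± 0.13 with total count scaling, with adjusted P-values of 0.000142 and 0.000789. RPL7, a large subunit protein, had a slope of 0.64 ± 0.10, and of 0.50 ± 0.11 and 0.46 ± 0.13 under these settings, with an adjusted P-value of 0.0125 or lower. RPL7 had only 128 to 1568 counts in a library. The part of reads aligned at more than 1 place in its level was not tested. RPS3A had slopes of 0.51 ± 0.08, 0.42 ± 0.09 and 0.34 ± 0.11, all with an adjusted P-value under 0.05. RPS4X at 0.58 ± 0.12 and RPL21 at 0.48 ± 0.09 were called in the first 2 settings, and with total count scaling their edgeR adjusted P-values were 0.0503 and 0.0785. RPS27L, RPL7 and RPS3A also had the steepest fall among the genes called with the macrophage level, where the slope was -1.40 ± 0.34 for RPS27L, -1.25 ± 0.27 for RPL7 and -1.12 ± 0.20 for RPS3A, followed by RPS4X and by RPL35A (-0.95 ± 0.26). With the milk protein level the genes of largest slope were RPS27L (0.36 ± 0.05), RPL7 (0.29 ± 0.05), RPS3A (0.24 ± 0.04), RPS4X (0.22 ± 0.06) and RPL21 (0.20 ± 0.05). With the T cell level RPS27L was at -0.64 ± 0.16, RPL7 at -0.61 ± 0.13, RPL21 at -0.51 ± 0.12 and RPS23 at -0.50 ± 0.12. With the neutrophil level RPL7 was at -0.75 ± 0.23, RPS15A at -0.67 ± 0.17, RPS23 at -0.65 ± 0.21, RPS3A at -0.57 ± 0.18 and RPL5 at -0.55 ± 0.16. RPL36AL, a paralog of RPL36A, rose with the epithelial level by 0.37 ± 0.07, whereas RPS27 (0.11 ± 0.06), RPS4Y1 (0.14 ± 0.06), RPL7L1 (0.13 ± 0.05) and RPL22L1 (0.11 ± 0.06) did not pass the test.

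Ratios within a cow need no scaling between libraries, and they differed between paralogs. The log2 ratio of RPS27L to RPS27 counts was -6.13 in HY cow 2814, -4.43 in the median and -2.06 in HY cow 3280. RPS27L had 69 to 843 counts in a library and RPS27 had 1871 to 11282. The median ratio was -3.26 under 120 days and -4.63 over 120 days, and the ranges overlapped, at -6.13 to -2.06 and -5.83 to -3.71. The ratio of RPL7L1 to RPL7 went the other way, from -0.68 in HY cow 3280 to 3.27 in LY cow 3198, with a median of 2.16. The ratio of RPL36AL to RPL36A was steadier, at 1.98 to 3.60 with an SD of 0.45, and that of RPL26L1 to RPL26 was -3.30 to -1.31 with an SD of 0.56. RPS4X and RPS4Y1, a pair chosen after the values were seen, encode the same small subunit protein from the sex chromosomes in humans. Both were counted in every cow, RPS4Y1 with 619 to 2864 counts and RPS4X with 150 to 2383. Their log2 ratio (RPS4X to RPS4Y1) ran from -3.09 in HY cow 2920 to 0.95 in HY cow 3280. All cows are female, so the symbol RPS4Y1 cannot be taken to mean a Y-linked gene here. Reads that aligned to both copies of a pair would have been set aside by the counting, and their number was not tested. The levels of these pairs are for that reason uncertain.

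**Figure D5:**
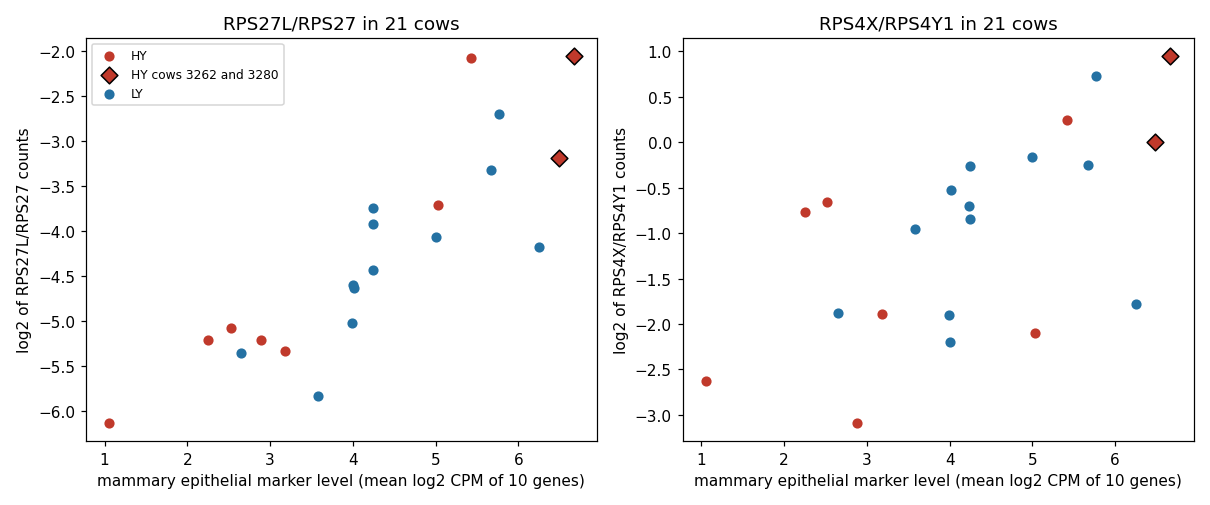
Log2 ratio of RPS27L to RPS27 counts (left) and of RPS4X to RPS4Y1 counts (right) against the mammary epithelial marker level (mean log2 CPM of 10 genes), 1 point per cow. The RPS27L ratio runs from -6.13 in HY cow 2814, which has the lowest marker level, to -2.06 in HY cow 3280, which has the highest; the RPS4X ratio is more scattered.

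The study asked which genes go with milk yield. In the simple regression of the breeding value on log2(CPM + 0.25), 0 of 81 ribosomal protein genes had a P-value under 0.05, where 2.49% of all 12333 genes did, and 0 passed after adjustment. The lowest P-values were those of RPL23A, with a slope of -116 ± 86.8 (SE) breeding value units per log2 unit and a P-value of 0.196, RPL26L1 (-208 ± 164, P-value 0.221) and RPL9 (-89.8 ± 79.5, P-value 0.273). RPS9 had a slope of 40.8 ± 88.3 with a P-value of 0.650. With all 21 cows 45 of 81 slopes were negative, without HY cows 3262 and 3280 71 were, and with total count scaling 60 were, with 0 genes at an unadjusted P-value under 0.05 in the last. Without HY cows 3262 and 3280, 6 of 81 genes fell with breeding value at an unadjusted P-value under 0.05, where 3.75% of all genes fell. The lowest P-value of this regression was 0.0355, for RPS24 (-193 ± 84.5), and 0 passed after adjustment. The lowest breeding values, -404.27, -368.867 and -364.095, were those of LY cows 3369, 2893 and 3407, at 79, 59 and 52 days. HY cows 2814 and 3075, at 41 and 101 days, had 227.521 and 211.463. Breeding value and lactation period are thus partly confounded in the cows that remained. The part of lactation period in these slopes was not tested. Between HY and LY, edgeR called 0 of 79 genes after adjustment and 0 at an unadjusted P-value under 0.05, where 1.8% of all genes were called. DESeq2 called 0 after adjustment and 1 at an unadjusted P-value under 0.05. The share of all genes called by DESeq2 is not given here, so that 1 gene is not set against it. The median difference of the 79 genes was 0.34 (HY minus LY, log2) and changed sign to -0.05 with total count scaling. Without HY cows 3262 and 3280 it was -0.14. The share of all genes is not given here for the signs that follow or for those of the milk yield slopes. The difference was positive in 76 of 79 genes with all cows, in 26 with total count scaling and in 5 without the 2 cows. With all 21 cows it was largest in RPL7, at 0.96 ± 0.49 with a P-value of 0.0615, followed in P-value by RPS19 (0.72 ± 0.40) and RPL10 (0.55 ± 0.31), and without the 2 cows RPS19 and RPL10 were at -0.07 and -0.08. RPL7 had 249 CPM in HY cow 3280 against a median of 25.9 over all cows. Whether the lactation slope differed between HY and LY was tested with an interaction term. After adjustment 0 of 79 genes were called, and at an unadjusted P-value under 0.05 RPS27 (-0.52 ± 0.21) and RPL26 (-0.56 ± 0.25) had lower slopes in HY, where 0.992% of all genes were called. RPL39 was next, at -0.66 ± 0.32 with a P-value of 0.0526. With total count scaling 0 were called at either threshold. Without HY cows 3262 and 3280, edgeR called 0 of the 79 genes after adjustment in both the group test and the interaction, and 1 in each at an unadjusted P-value under 0.05, where 3.61% and 0.61% of all genes were called.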

How the data were processed

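The authors trimmed paired-end Illumina reads with Trimmomatic, mapped them to bosTau7 with Bowtie2 within TopHat2 and counted reads on genes with HTSeq, per the labels and the methods of the study; the strand setting and tool versions are not given in the sources used here. The deposited values are raw counts per gene, without normalization. The 5 HTSeq totals and a row named null (0.036% to 0.151% of the other counts) were left out, and 23 symbols had turned into dates.

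The members and lists were chosen with earlier results of these data known. Tests of lactation period, group, interaction and marker levels used edgeR 4.0.16 in R 4.3.3 (TMM factors, filterByExpr with a minimum count of 10, glmQLFit and glmQLFTest, no covariates, 9372 genes, Benjamini-Hochberg adjustment over all of them; the SE is the slope divided by the square root of F). Milk yield was regressed on log2(CPM + 0.25), the pseudocount being 0.25, for 12333 genes. A marker level is the mean of log2 CPM over its listed genes with a prior count of 2. DESeq2 1.42.0, other size factors, filters, covariates, a split at 120 days and leaving out cows were alternatives. In the deposited counts no table pools cows, and cows are the replicates. The scripts were tested on simulated data with 200 changed genes. Named were a fixed set of genes by role, every paralog, the 3 extremes of level and of SD, and in each test up to 5 called genes of largest slope, or the 3 of lowest P-value where none was called. No protein, promoter or genome sequence is printed, and coordinates were not used here. Some single genes are not reported here, though they stay in the counts over all genes.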

Additional observations from a re-analysis of the deposited data

Results flagged for a closer look

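In groups of 4 to 10 cows, a cow was singled out when its gap to the nearest cow, divided by the range of the group, passed Dixon's 95% limit. Chance alone gives about 1 such case in 20 groups, and 5 were found in 114. In log2 CPM, RPS9 was at 11.3 in LY cow 7643, against 9.81 in the next of the 8 LY cows over 120 days. FAU was at 10.1 in LY cow 2893, against 9.11 in the next of the 4 LY cows under 120 days, and RPL7L1 was at 7.81 in the same cow, against 6.97. RPS27A was at 9.86 in HY cow 3235, against 9.29 in the next of the 5 HY cows over 120 days. RPL36AL was at 6.99 in LY cow 3272, below 7.47 in the next of the 8 LY cows over 120 days. Outside the gene counts, reads aligned at more than 1 place made up a median of 24.2% of the reads in the count files, and the genes they came from are not recorded there.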

How the results depend on the processing

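The values that moved are counts of ribosomal protein genes called. For lactation period at an adjusted P-value under 0.05, 0 became 20 with DESeq2 and 34 with 2 classes split at 120 days, and leaving out each cow in turn gave 0 to 15. At an unadjusted P-value, 52 became 34 without the cow with the largest share on 10 genes (HY 3262), 25 without HY 3262 and 3280, 15 with total count scaling and 11 with T cell and neutrophil levels as terms, and leaving out each cow gave 34 to 63. For the marker levels, total count scaling gave 7 falling with macrophage, 4 with T cell and 4 with B cell, and 6 rising with milk protein and 3 with mammary epithelial. Without HY 3262 and 3280 these were 0 with neutrophil, 10 with macrophage, 0 with T cell, 12 with milk protein and 13 with mammary epithelial. The 16 cows with a mapping rate under 85% gave 2 with neutrophil and 1 with T cell, and at least 10 counts in every cow gave 7 with T cell. With B cell, DESeq2 size factors gave 10, no filter 2, and leaving out HY 3262 gave 15. Where no share of all genes is given for a setting, these counts show only how the calls moved. They do not show whether ribosomal protein genes were called more often than other genes. The cause was not tested. For HY against LY and for milk yield the adjusted count was 0 in each fit that left out a cow. In HY minus LY, RPS9 changed to -0.037 without HY 3262, -0.11 with total count scaling and -0.18 without the 2 cows, and RPS19 and RPL10 to -0.067 and -0.076 without the 2 cows; the RPS9 slope of milk yield changed to -5.3. Of 349 alternative fits of named genes, 299 kept direction and side of the threshold, 30 lost the call, 14 gained it and 6 changed sign. Settings with total count scaling, without the 2 cows, with the mapping set and with epithelial and macrophage terms were chosen after seeing the data.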

Other observations

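After the common rise and fall, the second principal component of the 79 genes carried 14.5% of the variance and set 2 sets of ribosomal protein genes against each other. RPS27L, RPS3A, RPL7 and RPS23 lay at one end and RPS21, RPS9, RPS28 and RPL8 at the other, all named after their values were seen. As an example, the log2 ratio of RPS9 to RPS3A counts within a cow was -1.27 in HY cow 3075, 0.34 in the median and 2.61 in LY cow 7643, with an SD of 1.03. The median was -0.40 under 120 days and 0.42 over 120 days, and the ranges overlapped, at -1.27 to 1.91 and -0.56 to 2.61. The log2 ratio of RPS21 to RPL7 ran from 0.97 in HY cow 3280 to 5.81 in LY cow 7643. Both ratios compare genes within a library and do not depend on the scaling. LY cow 7643 also had the highest share of counts on ribosomal protein genes, with 0.259% of its counts on milk protein genes. The part of cell composition, of reads aligned at more than 1 place and of RNA quality in this axis was not tested.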
